A study of Homo sapiens with 4 samples.

Results

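Polycomb repressive complex 2 (PRC2) genes are described here in MiaPaCa2, an established human pancreatic ductal adenocarcinoma cell line, after exposure to the E2F inhibitor LY101-4B. The set held 10 genes, chosen by name and role: the core subunit genes EZH1, EZH2, EED, SUZ12, RBBP4 and RBBP7, and the accessory subunit genes JARID2, MTF2, PHF19 and AEBP2. All 10 had a value among the 18417 genes that the arrays represented by a probe set with a single gene symbol, and each had exactly 1 such probe set, so no choice between probe sets was needed. Cultures were taken after 24 h: 2 arrays of vehicle-treated cultures and 2 arrays of cultures given LY101-4B at 50 µM, called biological replicates in the design. A protocol entry of the same samples names LY101-4D at 25 µM instead; the titles and agent labels were followed. No other cell line, dose, time or genetic change was compared, and what the vehicle was is not given in the sources used here. The set was proposed with this comparison already known: EZH2, a known E2F target, was selected on its small log2 difference between LY101-4B and vehicle. The members' differences are therefore a description, and no p-value is printed for them. Where members are said below to pass a threshold, that too is description and not a test of the set.

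PRC2 methylates a lysine in the tail of histone H3, which gives H3K27me3, a mark of silenced chromatin. EZH2, or its relative EZH1, carries the catalytic domain but needs EED and SUZ12 for activity, while the paralogous histone-binding proteins RBBP4 and RBBP7 serve PRC2 and several other chromatin complexes. The accessory proteins form alternative assemblies: the Polycomb-like proteins PHF1, MTF2 and PHF19 on one side, JARID2 and AEBP2 on the other. EZH2 and EED are textbook targets of E2F, the transcription factor family that drives entry into S phase, and EZH2 is high in proliferating cells whereas EZH1 is more prominent in resting ones.

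Because the compound is presented as an E2F inhibitor, the members' promoters were searched for E2F-type words, and the matches are printed so that they can be read beside the responses. RefSeq promoter windows (build GRCh38.p14, 250 bases before to 50 after each start site) covered all 10 members with 15 windows. On both strands, 6 of the members held TTTCCCGC, TTTCGCGC, TTTGCCGC or TTTGGCGC. Of the array's genes with a window, 5.51% held one of these words in any of their windows, as did 3.31% of all windows. Of 12 other E2F-regulated chromatin genes with a window, from a list described below that fell throughout, 4 held one. Whether a word goes with the response was not tested. Each stretch below has 30 bases, read 5′ to 3′ on the gene's strand, with the match in capitals.
EZH2: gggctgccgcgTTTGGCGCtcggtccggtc
SUZ12: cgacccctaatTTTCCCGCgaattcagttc
EZH1: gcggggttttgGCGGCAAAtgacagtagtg
MTF2: accggcagtccGCGGGAAAccaaaatggcg
PHF19: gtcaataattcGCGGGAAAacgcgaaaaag
AEBP2: caaggcgacgtTTTGCCGCgatccccctgc

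The EZH2 stretch lies at chr7:148884272-148884301 on the minus strand, with the match beginning 1 base after the start base. The SUZ12 stretch lies at chr17:31936807-31936836 on the plus strand, 189 bases before the start, and that of EZH1 at chr17:42745137-42745166 on the minus strand, 115 bases before it. MTF2 has its match 5 bases after the start, at chr1:93079277-93079306 on the plus strand. The stretches of PHF19 (chr9:120877322-120877351, minus strand) and AEBP2 (chr12:19440438-19440467, plus strand) hold matches 152 and 150 bases before a start. A second set of words moved by 1 base, TTCCCGCC, TTCGCGCC, TTGCCGCC and TTGGCGCC, overlaps the first and occurred in EZH1, RBBP4 and RBBP7, against 9.85% of the array's genes. It is printed for the RBBP pair, which had no match to the first set.
RBBP4: tggctgatgttGGCGCGAAggtgcgcgagt
RBBP7: cgccggcgaaaGGCGCGAAttggcgtgcgg

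These lie at chr1:32651156-32651185 on the plus strand, inside both RBBP4 windows, and at chrX:16869939-16869968 on the minus strand. EED and JARID2 held no word of either set in these windows. The cell cycle homology words TTTGAA and TTCGAA, found in 17.4% of the array's genes, occurred in SUZ12 alone among the members. A match is a description of letters, not evidence of a bound site.

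Array quality bears on every value. The columns had medians between 5.88 and 5.97 log2 units, and replicate arrays correlated at r = 0.997 for vehicle and 0.994 for LY101-4B over 21214 annotated probe sets. Values are log2 expression after RMA, so probe set brightness cannot be compared between genes, and no detection calls were used. The keratin genes KRT8 and KRT18 were bright in every array (11.86 or more), and so was the mesenchymal gene VIM (12.47 to 12.66). KRT19 read 9.06 to 9.28. The leukocyte gene PTPRC read 3.56 or less, CD3E 5.02 to 5.15 and CD14 5.54 to 5.93. No cell identity is read from these values. Of 14 measured marker genes for epithelial, mesenchymal, leukocyte, endothelial, fibroblast and erythroid cells, KRT8, KRT18 and COL3A1 fell by 0.84, 0.57 and 0.54 log2 units, and 0 rose (limma adjusted p under 0.05; also 0 at an unadjusted p under 0.05); their part in the results was not tested. In a bulk culture, fewer cells of a kind (for instance fewer cells in S phase) and less RNA per cell cannot be told apart.

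With LY101-4B most PRC2 genes were lower, led by EED, PHF19 and MTF2. A linear model (limma) over all annotated probe sets, with Benjamini-Hochberg adjustment and a threshold of 0.05, placed 6 of 10 members past the threshold (called) as lower and 0 as higher (8 lower and 2 higher at an unadjusted p under 0.05); over all genes 19.6% were called, 10.7% lower and 8.88% higher. All 10 members were among the brighter 50% of probe sets, of which 46.8% were called when tested alone. Since the set was proposed with this comparison known, nothing is read from the count of members called. Members' differences (LY101-4B minus vehicle) ran from -0.88 to 0.34 log2 units with a median of -0.43, beside a median of 0.00 over all genes. None reached a 2-fold change, and 4 exceeded 1.5-fold. For all 10 members the vehicle and LY101-4B arrays did not overlap, which was also so for 58% of all genes.

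**Figure D1:**
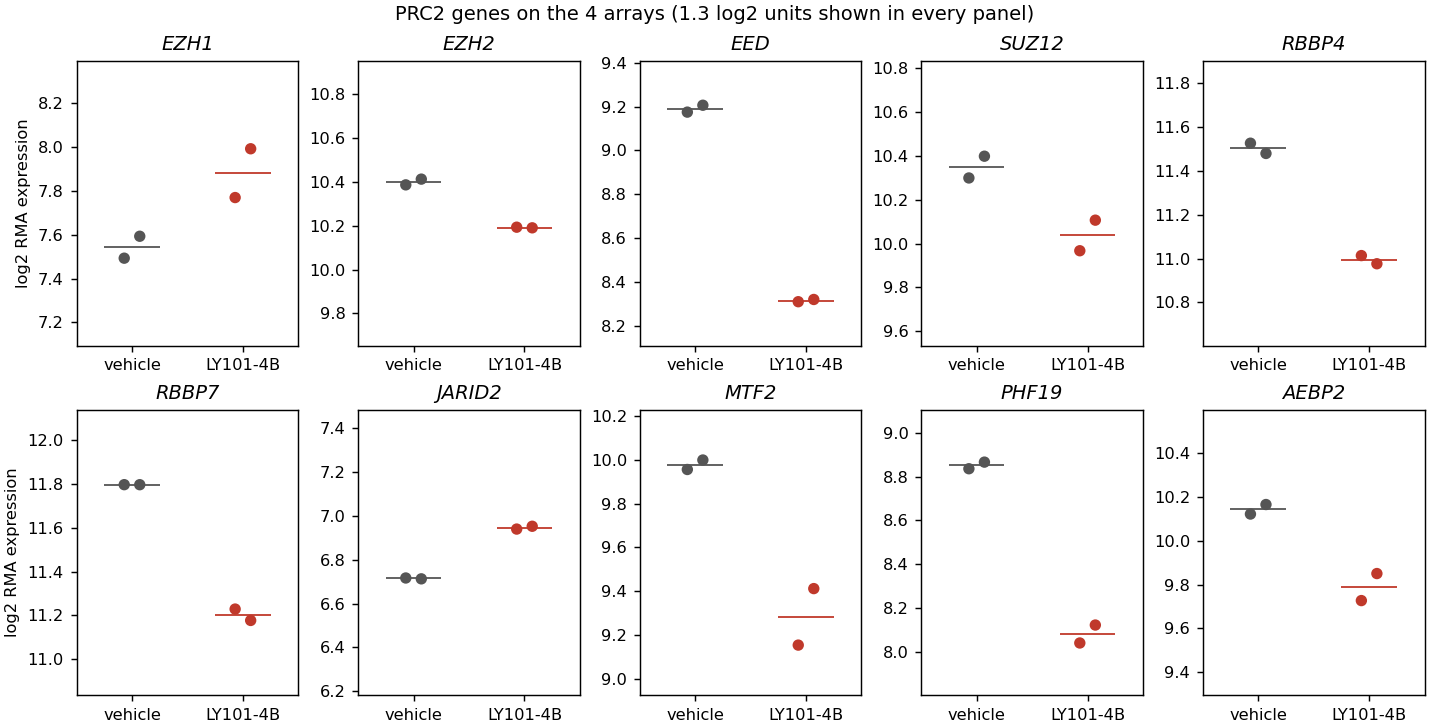
Log2 RMA expression (y axis) of the 10 PRC2 genes on the vehicle (grey) and LY101-4B (red) arrays, 1 point per array, with a line at each group mean and the same height of axis in each panel. The EED points drop from about 9.2 to 8.3, the EZH2 points from 10.4 to 10.2, and EZH1 and JARID2 are the only panels in which the red points are higher.

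Among the core subunits, the catalytic genes EZH2 and EZH1 lay on opposite sides of 0, and neither passed the threshold. EZH2, the main methyltransferase of dividing cells, read 10.39 and 10.41 log2 units on the vehicle arrays and 10.19 on both LY101-4B arrays. Its replicates differed by 0.03 and 0.00 log2 units, so the difference of -0.21 ± 0.08 (SE), or 1.15-fold lower, was larger than the spread within either group, but it did not pass the threshold except with an intensity trend in the fit. The 95% interval ran from -0.42 to just under 0; as EZH2 was selected on this value, the interval is given as its error only. Here and below, a missed threshold does not show that a gene was unchanged. Scaling mattered for this small difference, which was -0.11 with cyclic loess between arrays and -0.26 with arrays centred on their medians. EZH1, the relative prominent in resting cells, read 7.49 and 7.59 with vehicle and 7.77 and 7.99 with LY101-4B. Both treated values lay above both vehicle values, and the difference was 0.34 ± 0.11 log2 units (SE).

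EED, the subunit that reads the methyl mark and stimulates the enzyme, had the largest difference of the set. It read 9.17 and 9.21 on the vehicle arrays and 8.31 and 8.32 with LY101-4B. The gap between the groups, 0.86 log2 units, was far larger than the replicate differences of 0.03 and 0.01. EED was 1.84-fold lower (-0.88 ± 0.08 log2 units, SE), a larger absolute change than 95.5% of all genes showed, against 58.5% for EZH2. SUZ12, the scaffold subunit, read 10.30 and 10.40 with vehicle and 9.97 and 10.11 with LY101-4B. Its groups did not overlap, but the difference of -0.31 ± 0.10 (SE) did not pass the threshold. It passed with the brighter 50% of probe sets and with an intensity trend. SUZ12P1, a partial pseudogene copy examined after the values were seen, has its own probe set and read 8.09 and 8.43 against 8.05 and 8.27, with overlapping groups; whether its transcripts reach the SUZ12 probe set was not tested.

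The histone-binding pair changed nearly alike. RBBP4 read 11.53 and 11.48 with vehicle and 11.01 and 10.98 with LY101-4B, a 1.42-fold fall (-0.51 ± 0.09 log2 units, SE). RBBP7 read 11.80 on both vehicle arrays and 11.23 and 11.18 with LY101-4B, a 1.51-fold fall (-0.59 ± 0.08, SE). Both genes were called lower, and the log2 ratio of RBBP7 to RBBP4 within an array moved by only -0.09.

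Of the accessory subunits, the Polycomb-like genes PHF19 and MTF2 had the largest falls. PHF19, whose product binds histone H3 methylated at H3K36 and helps recruit the complex, read 8.84 and 8.87 with vehicle and 8.04 and 8.12 with LY101-4B, a 1.70-fold fall (-0.77 ± 0.09 log2 units, SE). MTF2, which binds unmethylated CpG-rich DNA, read 9.96 and 10.00 with vehicle. Its treated values, 9.15 and 9.41, were the farthest apart of any member, by 0.26, yet both were clearly lower (-0.69 ± 0.11, SE; 1.62-fold). AEBP2, a zinc finger subunit, read 10.12 and 10.17 with vehicle and 9.73 and 9.85 with LY101-4B, and was called lower (-0.36 ± 0.09 log2 units, SE). JARID2, its partner in the same assembly and a relative of histone demethylases without their activity, read 6.72 and 6.71 with vehicle and 6.94 and 6.95 with LY101-4B. Those replicates were nearly identical, but the difference of 0.23 ± 0.08 (SE) did not pass.

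The calls differed in firmness. EED and PHF19 were called under all 12 alternatives. RBBP4, RBBP7 and MTF2 lost their calls without vehicle replicate 1 and without vehicle replicate 2, where 2 members were called and the share of all probe sets called dropped to 7.59% and 7.94%. AEBP2 lost its call in these fits, and also without LY101-4B replicate 1, with cyclic loess, with all rows of the table and with the replicate number as a block. EZH1 and JARID2 were called higher only among the brighter 50% of probe sets, in which 46.8% were called. No member changed direction with cyclic loess or with arrays centred on their medians. The other alternatives could not have reversed a member. They left its difference as it was or, with 1 array left out, compared groups that did not overlap.

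**Figure D2:**
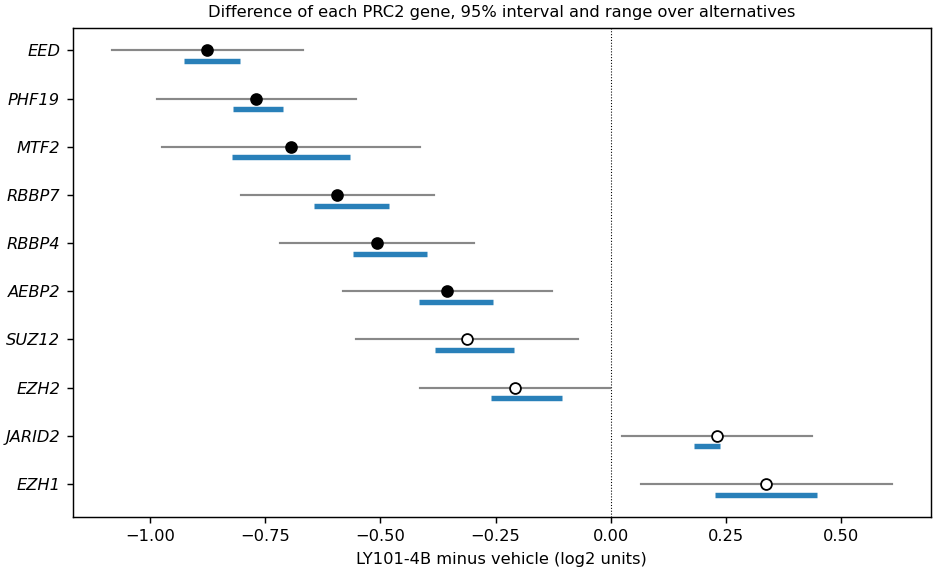
Difference of each PRC2 gene (x axis, LY101-4B minus vehicle in log2 units), with the 95% interval of the fit as a grey line, the range over all fits as a blue bar, and a filled circle where the gene passed the threshold. EED, at -0.88, and PHF19, at -0.77, stand farthest to the left, while EZH2 (-0.21) sits near the dotted line at 0 and EZH1 (0.34) and JARID2 (0.23) to its right.

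Ratios within an array do not depend on how arrays were scaled against each other by a constant, so related subunits were also set against each other. A scaling that varies with brightness can still change them. With cyclic loess JARID2 differed by 0.20 and AEBP2 by -0.26, against 0.23 and -0.36 in the main fit. The log2 ratio of EZH1 to EZH2 was -2.89 and -2.82 on the vehicle arrays and -2.42 and -2.20 on the treated ones, a shift of 0.55 towards EZH1. The ratio of EED to EZH2 was -1.21 on both vehicle arrays and -1.88 and -1.87 on the LY101-4B arrays, a shift of -0.67. Ratios with EZH2 are a description, since its small difference led to its selection. JARID2 shifted by 0.59 relative to AEBP2. In contrast, SUZ12 shifted by -0.10 relative to EZH2, and MTF2 by 0.08 relative to PHF19, with values on treated arrays that overlapped those of vehicle in both ratios.

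The remaining Polycomb-like gene, PHF1, was not a member and went the other way. It read 7.11 and 7.15 with vehicle and 7.74 and 7.64 with LY101-4B, a 1.47-fold rise (0.56 ± 0.09 log2 units, SE; limma adjusted p 0.0109). The call was lost without either vehicle array (adjusted p 0.0915 and 0.0714). Relative to PHF19 within the same array PHF1 shifted by 1.33 log2 units, or 2.51-fold, and relative to MTF2 by 1.25. These ratios were not tested and are given as values. Of the other 5 measured PRC2 partners (EPOP, LCOR, LCORL, EZHIP and CDYL) limma called 0, LCOR alone had an unadjusted p under 0.05 (0.0221), and the 6 partners had a median of -0.05 log2 units.

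**Figure D3:**
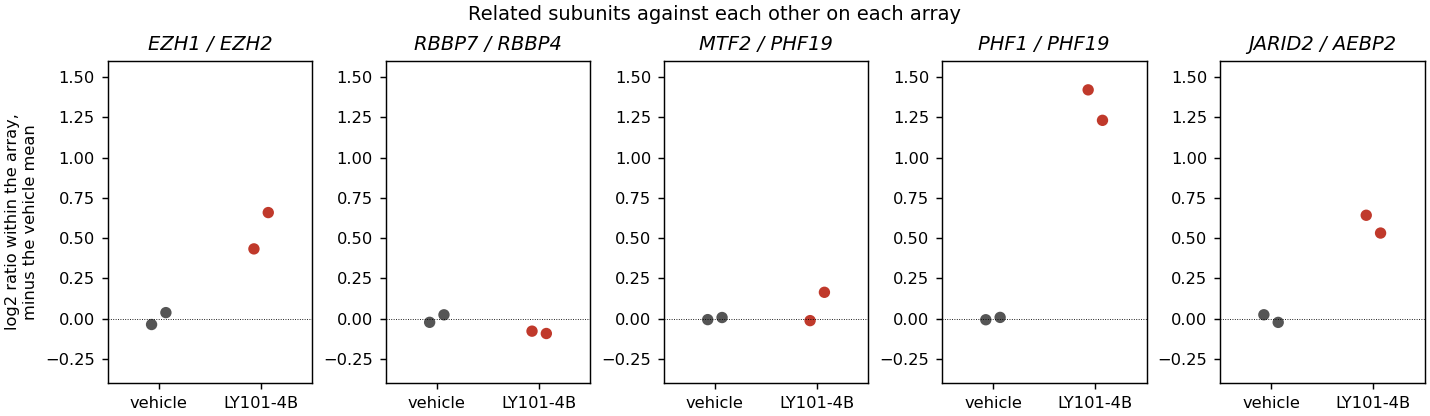
Log2 ratio of related subunits within each array, minus the mean of the vehicle arrays (y axis), for vehicle (grey) and LY101-4B (red) arrays. The ratios RBBP7 to RBBP4 and MTF2 to PHF19 stay within 0.2 of the vehicle mean, whereas PHF1 to PHF19 rises by 1.33, JARID2 to AEBP2 by 0.59 and EZH1 to EZH2 by 0.55 on average.

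Other E2F-regulated genes of chromatin fell throughout. All 14 measured genes of that list were called lower, beside 10.7% of all genes, with a median of -1.51 log2 units. Earlier results of these data were known when the list was written. Each of the 14 fell by more than EZH2. The list was led by UHRF1, which recruits the maintenance DNA methyltransferase (4.43-fold; limma adjusted p 0.0004), the chromatin remodeller gene HELLS (4.36-fold), CDCA7 (3.46-fold) and ATAD2 (3.28-fold), with adjusted p of 0.0010 or less. DNMT1, the maintenance methyltransferase, fell 2.56-fold and SUV39H1, a heterochromatin methyltransferase gene, 2.90-fold. The smallest fall was that of H2AZ1, a histone variant gene, at -0.61, a call lost without either vehicle array (adjusted p 0.0668 and 0.0527); 12 of the 14 fell by more than EED. On the separate LY101-4B arrays the mean of these 14 genes lay 1.48 and 1.42 log2 units under the vehicle mean, whereas EZH2 was 0.21 under it on both. EZH2 was chosen for its small difference, so the contrast between them is a description.

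RBBP4 and RBBP7 also serve other assemblies, and 6 of the 25 measured partner genes outside PRC2 fell while 1 rose (11 and 2 at an unadjusted p under 0.05), beside the 10.7% and 8.88% of all genes called lower and higher. The chromatin assembly factor genes CHAF1B and CHAF1A, whose products deposit histones behind the replication fork with RBBP4, fell 3.17-fold and 2.78-fold (limma adjusted p 0.0006 and 0.0007). Both are also counted in the list of other E2F-regulated chromatin genes above. LIN9 of the MuvB complex fell 2.33-fold and HAT1, the histone acetyltransferase that works with RBBP7, 1.62-fold (adjusted p 0.0038 and 0.0118). HAT1 lost its call without either vehicle array (0.0602 and 0.0661). The deacetylase genes HDAC2 (-0.45) and HDAC1 (-0.38) fell as well, and LIN37, another MuvB gene, rose by 0.62; all were picked out once their values were known. LIN37 lost its call without vehicle replicate 2 (0.0874), and both deacetylase genes lost theirs without either vehicle array or LY101-4B replicate 1, and with all rows. HDAC1 also lost its call with cyclic loess and without LY101-4B replicate 2 (adjusted p 0.0557 to 0.215 over the lost calls of HDAC1 and HDAC2). Without either vehicle array 3 of the 25 partner genes fell. The list's median was -0.19.

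Polycomb repressive complex 1, which ubiquitinates histone H2A and binds the PRC2 mark through its CBX subunits, moved in few members. Of 26 measured subunit genes 2 fell and 0 rose by limma (6 and 0 at an unadjusted p under 0.05), and the median was -0.06 log2 units. Over all genes 10.7% were called lower and 8.88% higher. SCML2 fell from 7.82 and 7.88 to 6.69 and 6.92, which is 2.06-fold (limma adjusted p 0.0028), and BCOR 1.35-fold (adjusted p 0.0206). BCOR missed the threshold without vehicle replicate 1 or 2, without LY101-4B replicate 1 and with all rows of the table (0.0558 to 0.164). E2F6, the E2F family member that belongs to such a complex, differed by 0.03 and was not called. The count of falls was 1 without any one of vehicle replicate 1, vehicle replicate 2 and LY101-4B replicate 1, and 5 without LY101-4B replicate 2. The other listed subunit genes are not analysed here.

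Among genes that act against PRC2 through H3K27 or H3K36, KDM6B alone was called higher and NSD2 alone lower. These were 1 of 4 measured H3K27 genes and 1 of 4 measured H3K36 genes, beside 19.6% of all genes called. KDM6B, which removes the PRC2 mark, rose 1.38-fold (0.47 ± 0.10 log2 units, SE; limma adjusted p 0.0248), from 6.44 and 6.33 to 6.92 and 6.79. The other demethylase gene KDM6A (0.06) and the acetyltransferase genes CREBBP (0.12) and EP300 (0.06) were not called. KDM6B lost its call without any one of vehicle replicate 1, vehicle replicate 2 and LY101-4B replicate 1, and with all rows (0.0727 to 0.179). Among 4 measured methyltransferase genes for H3K36, a mark that hinders PRC2, NSD2 fell 1.64-fold (limma adjusted p 0.0114) and the others were not called. Of these others SETD2 (-0.28), named once its value was known, alone had an unadjusted limma p under 0.05 (0.0208). NSD2 lost its call without either vehicle array (0.0602 and 0.0604).

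In the complexes that oppose Polycomb, 5 of 14 trithorax-type genes fell and 0 rose by limma (6 and 0 at an unadjusted p under 0.05, median -0.17). Over all genes 10.7% were called lower and 8.88% higher, shares to set beside each count in this paragraph. HCFC1 (1.59-fold), WDR5 (1.49-fold), PAXIP1 (1.47-fold) and ASH2L (1.38-fold) led the falls, with limma adjusted p from 0.0094 to 0.0161, while none of the catalytic genes KMT2A, KMT2B, KMT2C, KMT2D, SETD1A and SETD1B was called. These 4 lost their calls without either vehicle array (0.0554 to 0.130), where 0 of the 14 were called, and ASH2L also with all rows (0.0541). For SWI/SNF, the nucleosome remodeller that evicts Polycomb complexes, 8 of 18 genes fell and 0 rose by limma (10 and 1 at an unadjusted p under 0.05; median -0.29). The ATPase gene SMARCA4 fell from 9.24 and 9.19 to 8.31 and 8.50, or 1.76-fold (adjusted p 0.0048), ACTL6A 1.58-fold, SMARCB1 1.37-fold and SMARCD1 1.37-fold. ACTL6A lost its call without vehicle replicate 2 (0.0530), SMARCB1 and SMARCD1 lost theirs without either vehicle array (0.115 to 0.144) and also with all rows (0.0570 and 0.0565). The SWI/SNF count of falls was 2, 1 and 4 without vehicle replicate 1, vehicle replicate 2 and LY101-4B replicate 1. In the deubiquitination list, which removes the H2A mark, HCFC1, also counted above, and ASXL1 (1.37-fold, adjusted p 0.0429) fell of 11 measured. BAP1, also on that list, had no value and is not analysed here. ASXL1 lost its call without vehicle replicate 1 or 2, without LY101-4B replicate 1 and with all rows (0.111 to 0.241).

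**Figure D4:**
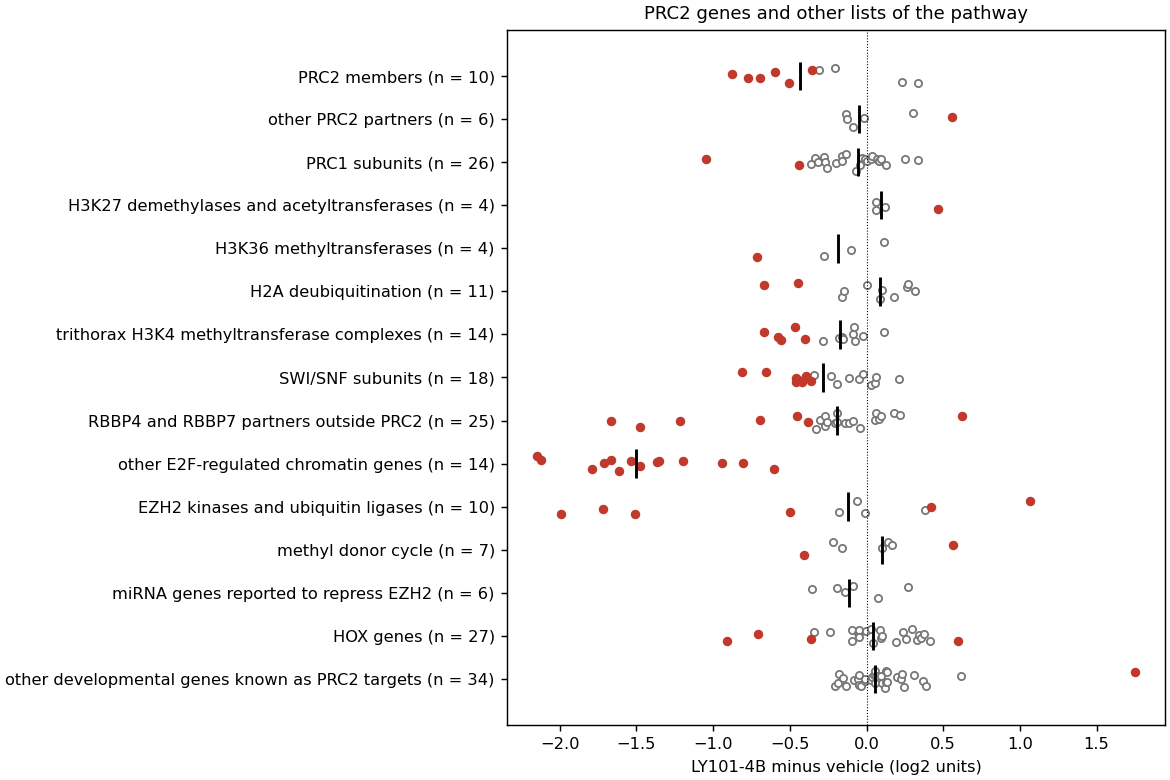
Difference of each measured gene (x axis, LY101-4B minus vehicle in log2 units) in the PRC2 set and the other lists, with red points for genes past the threshold, open points for the rest and a black bar at each list's median. The PRC2 median is -0.43, that of the other E2F-regulated chromatin genes -1.51, and those of the HOX genes and other developmental genes 0.04 and 0.06.

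A list of kinase and ubiquitin ligase genes linked to EZH2 protein included larger changes than any member. The kinase genes CDK1 and CDK2, whose products phosphorylate EZH2, fell 3.97-fold and 2.84-fold, and the ubiquitin ligase gene SKP2 3.29-fold (limma adjusted p 0.0006, 0.0010 and 0.0007). PJA1, a ubiquitin ligase gene, rose 2.10-fold, from 7.16 and 7.10 to 8.29 and 8.11 (adjusted p 0.0021). In all, 4 of 10 fell and 2 rose, beside the 10.7% and 8.88% of all genes called lower and higher. The other calls were AKT1 (-0.50) and TRIM21 (0.42), picked out once their values were known. AKT1 lost its call without either vehicle array. TRIM21 lost its call without either vehicle array or LY101-4B replicate 1, and also with all rows of the table (limma adjusted p 0.0707). EZH2 protein was not measured, and whether SKP2 or the other listed ligases raise or lower it was not tested.

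Lists of genes that PRC2 is known to silence are given next, beside the 19.6% of all genes that were called. Of 27 measured HOX genes, which pattern the body axis, 1 rose and 3 fell (3 and 4 at an unadjusted p under 0.05), and the median was 0.04 log2 units. All 4 calls lay in the HOXB group; 12 of the 39 listed HOX genes, most of them HOXA, are not analysed here. HOXB8 fell from 7.82 and 7.85 to 6.84 and 7.02 (1.88-fold; limma adjusted p 0.0033), HOXB5 fell 1.63-fold (adjusted p 0.0060) and HOXB6 1.29-fold (adjusted p 0.0332). HOXB9 rose from 9.10 and 9.03 to 9.73 and 9.60, or 1.51-fold (adjusted p 0.0104). HOXB9 lost its call without either vehicle array (0.0592 and 0.0824), and HOXB6 without any one of the 4 arrays and with all rows (0.0583 to 0.228). Of 34 other developmental genes known as PRC2 targets, 1 rose and 0 fell by limma (2 and 0 at an unadjusted p under 0.05): CCND2, which encodes cyclin D2, rose from 5.41 and 5.24 to 7.003 and 7.141, or 3.36-fold (adjusted p 0.0008). Their median was 0.06. Without LY101-4B replicate 2, 6 HOX genes and 6 of the other developmental genes rose, and without either vehicle array 0 HOX genes rose. Whether the low vehicle values of CCND2 were above background is unknown, so its fold is uncertain. The same is unknown for many other genes of both lists, which read near or under the array medians. The few calls and medians near 0 therefore do not show that these genes were unchanged.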

How the data were processed

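Expression was measured on Human Gene 1.0 ST arrays, per the labels' protocols. These also name a FlashTag Biotin HSR kit, which is normally meant for small RNA; whether it was used for these arrays, and so how the RNA was labelled, is uncertain. The authors deposited log2 values made with RMA, per the submitters' processing notes; RMA corrects background, forces arrays to nearly the same distribution and compresses differences at low signal. Version and filters: not given in the sources used here. Columns were mapped by accession (0 unmapped). Of 33297 rows, 21214 had a gene symbol in the platform annotation and were tested; 19460 had 1 symbol, and the brightest of these stood for a gene.

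limma 3.58.1 in R 4.3.3 (lmFit, eBayes, treatment as the only term, 2 residual and 3.75 prior degrees of freedom) gave differences, moderated SE and Benjamini-Hochberg adjusted p over all 21214 probe sets; it was tested on simulated data. Promoter windows came from RefSeq.

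The members and lists were chosen with earlier results of these data known. Named genes were all members and, from each other list, at most 4 called genes by size of change, or where no gene was called the 2 of lowest p; exceptions are marked. Alternatives were cyclic loess, median centring, the brighter 50% of probe sets, all rows, an intensity trend, a robust prior, the mean of a gene's probe sets, the replicate number as a block, and each array left out in turn.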

Additional observations from a re-analysis of the deposited data

How the results depend on the processing

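Of the 10 members, 6 were called lower, and the number of arrays limits how precisely any of them is known. Fits without 1 array estimate the spread from fewer arrays, so a lost call there need not mean a smaller difference. Leaving out each array in turn gave 755 to 1899 higher and 811 to 2467 lower calls over the table (1930 and 2236 with all arrays), and 2 to 6 members lower; the lowest table counts came without a vehicle array. The same ranges, for genes called lower, were 1 to 5 for PRC1, 0 to 1 for H3K36 methyltransferases, 0 to 2 for H2A deubiquitination, 0 to 4 for trithorax, 1 to 9 for SWI/SNF, 3 to 6 for RBBP partners, 0 to 1 for the methyl donor cycle. For genes called higher they were 0 to 1 for other PRC2 partners, for demethylases, for RBBP partners and for the methyl donor cycle, 1 to 2 for EZH2 kinases and ligases, 0 to 6 for HOX genes and 1 to 6 for other developmental genes; the HOX and developmental maxima came without LY101-4B replicate 2.

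When all rows were tested, 1162 probe sets were higher and 1271 lower, with more rows to adjust over; the counts were 1 lower for PRC1, 0 higher for demethylases, 1 lower for deubiquitination, 3 lower for trithorax, 2 lower for SWI/SNF, 1 higher for EZH2 kinases and ligases and 0 lower for methyl donors. The brighter 50% of probe sets, a smaller table, gave 2 members higher, 2 other partners higher, 6 PRC1 lower, 2 H3K36 lower, 2 deubiquitination higher, RBBP partners 2 higher and 11 lower, and 0 developmental genes higher, CCND2 being too dim to be tested. An intensity trend gave 2 H3K36 lower, 1 deubiquitination higher, 12 RBBP partners lower and 2 methyl donors lower, and a robust prior 0 of the latter. Cyclic loess gave 2 other partners higher and 1 deubiquitination higher, and median centring 4 PRC1 lower; the cause was not tested. Cyclic loess moved most members towards 0 (EZH2 to -0.11) and centring moved them down, but none changed direction, and no named gene reversed under either. Most other alternatives leave a difference as it is, so they could not show a reversal.

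Titles share replicate numbers across groups. Same-numbered arrays deviated from their group means with r = 0.12 over probe sets, and nothing says that they are paired. With the replicate number as a block, 2024 probe sets were higher and 2312 lower and 5 members were lower, AEBP2 having lost its call.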

Other observations

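The methyl donor cycle supplies the S-adenosylmethionine that EZH2 consumes. Of 7 measured genes, AHCYL2, a relative of the enzyme that clears the spent donor, rose 1.48-fold (limma adjusted p 0.0092) and MTR, methionine synthase, fell 1.33-fold (adjusted p 0.0496). Over all genes 19.6% were called. AHCYL2 lost its call without either vehicle array (0.0689 and 0.0805), and MTR lost it without any one of vehicle replicate 1, vehicle replicate 2 and LY101-4B replicate 1, with all rows and with a robust prior (0.0524 to 0.235). MAT2A, which makes the donor, differed by 0.16 and AHCY by -0.22, and neither was called.

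Of the 6 probe sets for miRNA genes reported to repress EZH2, limma called 0, and MIR138-1 (0.27) alone had an unadjusted p under 0.05 (0.0421). MIR138-2 differed by -0.36, MIR26A2 by -0.19, MIR101-1 by -0.14, MIR101-2 by -0.09 and MIR26A1 by 0.07. Such probe sets read precursor stretches, and mature miRNAs were not measured.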
